A study of Triticum aestivum with 4 samples.

Results

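Wheat stores carbon as sucrose, as starch and as fructans, polymers of fructose that fill vacuoles of leaves and stems while supply exceeds use. Fructan exohydrolases release fructose from the ends of these polymers, sucrose synthase splits sucrose into fructose and a nucleotide sugar, and ADP-glucose pyrophosphorylase makes the sugar donor from which starch is built. The genes described here are 1-FEH (LOC543441) and 6-FEH (LOC780575), exohydrolases named for the fructan linkage they cut, AGP-S (LOC543299), which encodes the small ADP-glucose pyrophosphorylase subunit, and sucrose synthase (Sucsyn), which the array carries as a control gene. They were chosen by name and not by their values. Every probe set assigned to 1-FEH, 6-FEH or AGP-S in the array annotation or the gene table was taken, together with every control probe set whose identifier begins with AFFX-Ta_Sucsyn. They are 4 genes, of which 3 are among the 771 that the annotation names and sucrose synthase is known from its control identifier. That gave 8 of the 61290 probe sets on the array, 1 for 1-FEH, 3 for 6-FEH, 1 for AGP-S and 3 for sucrose synthase. The sucrose synthase probe sets lie at the 3′ end, in the middle and at the 5′ end of the target.

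RNA came from flag leaves, the uppermost leaves of the plant, of the wheat cultivar TAM107 at 10 days after pollination. There were 2 arrays from control leaves under normal conditions and 2 arrays from leaves of plants moved to a growth chamber and kept for 1 h at 40 °C. All plants had been moved from the field into pots before flowering. Whether control plants entered a chamber too is not given in the labels, so the move and the heat cannot be told apart. Separate plants for the replicates are not stated either, and p-values then reflect only array-to-array spread, possibly technical.

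Values are linear MAS5 signals, the array software's estimate of the brightness of a probe set. Of the genes listed as leaf markers, 4 had a named probe set, and their group means lay between 32960 and 59912. No flower marker had a name on the array. Of 11 grain genes, 4 were bright enough to test, and the summed signal of the 11 was 8510 to 8695 in control and 8527 to 8662 in heat. Nearly all of that sum came from ALP, which was bright in both groups. ALP was put on the grain list by its name alone, which does not settle which protein it encodes. In whole leaves, more cells of a type and more RNA per cell cannot be told apart.

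Of the 8 probe sets, 6 were bright enough to test, and 4 of them, standing for 3 of the 4 genes, were higher in heat in limma at an adjusted p below 0.05. Sucrose synthase rose on its 3′ and middle probe sets, by 1.49-fold and 1.76-fold, 1-FEH rose 1.31-fold, and AGP-S rose 1.26-fold. No member was lower past the threshold. Of all 30602 tested probe sets, 14.2% were higher and 22.9% were lower, 37.1% in all. The split of 4346 higher and 6997 lower became 5042 and 4963 when each array was centred on its median. With no brightness filter, the median log2 fold change of the 8 members was 0.36, against -0.12 over all 61204 wheat probe sets. Over the tested probe sets it was -0.15, which moved to -0.03 with median centring and -0.02 with cyclic loess. The arrays of the groups did not overlap for 6 of the 8 members, and for 53.6% of all wheat probe sets. The 6 tested members come from 4 genes and are not independent of each other.

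**Figure D1:**
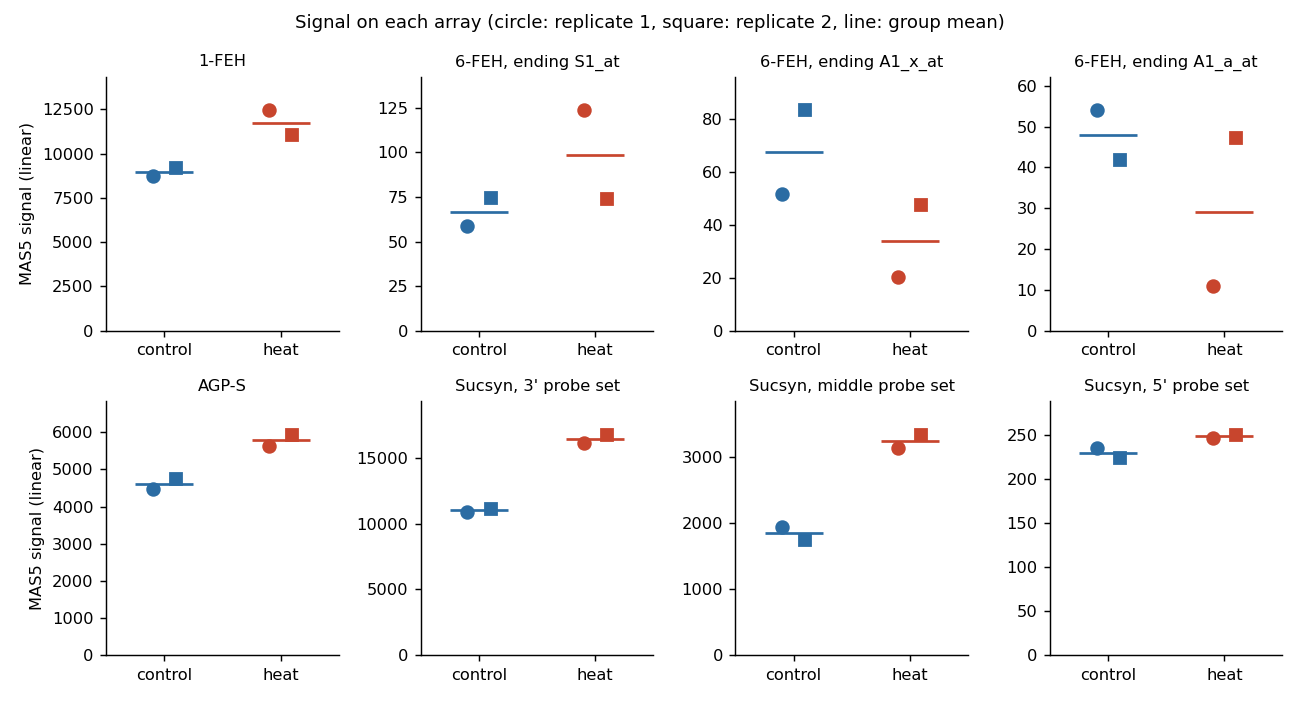
Signal of each of the 8 probe sets on each of the 4 arrays (linear axis from 0), control in blue and heat in red; circles are replicate 1, squares replicate 2 and lines group means. The heat arrays lie above both control arrays for 1-FEH, AGP-S and the 3 sucrose synthase probe sets, whereas the 3 probe sets of 6-FEH are dim, with the heat mean higher for 1 and lower for 2.

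Sucrose synthase is the enzyme through which sucrose arriving in a tissue can enter cell wall, starch and energy metabolism, and in leaves it is known from the phloem. Its 3′ probe set read 10924 and 11118 in control and 16125 and 16805 in heat. Both heat arrays were far above both control arrays, and the lower heat value was 1.45 times the higher control value. The log2 fold change was 0.58 ± 0.05 SE (95% confidence interval 0.46 to 0.70, adjusted p = 9.62e-05, limma). The middle probe set read 1946 and 1748 in control and 3138 and 3341 in heat. Here too the groups were well apart, with the lower heat value 1.61 times the higher control value and a log2 fold change of 0.81 ± 0.08 SE (0.63 to 1.00, adjusted p = 0.000161, limma). The middle probe set thus showed the largest change among the 4 members that passed, under the deposited scaling and each of the other scalings.

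The 5′ probe set did not pass the threshold. It read 236 and 224 in control and 247 and 251 in heat, so the heat arrays were again both above the control arrays, but only by 1.05 times at the nearest. Its log2 fold change was 0.12 ± 0.20 SE, with a 95% confidence interval of -0.35 to 0.58 (adjusted p = 0.689, limma). The interval therefore only just holds the value of the 3′ probe set (upper end 0.583 against 0.579) and lies below that of the middle one. Limma's intensity trend gives dim probe sets a larger expected spread and so set this SE; the 2 arrays of each group differed by only 0.07 (control) and 0.02 (heat) in log2 signal.

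Because these probe sets sit on 1 target, the log2 ratio of the 3′ to the 5′ signal was followed on each array. It was 5.54 and 5.63 in control and 6.03 and 6.07 in heat, 0.46 higher in heat. The groups did not overlap, which with 2 against 2 arrays gives an exact permutation p of 0.333 (two-sided), the smallest possible. The middle to 5′ ratio changed by 0.70, and the 3′ to middle ratio by -0.23. Each of these changes depends on the scaling. Quantile normalization brought the 3′ to 5′ change to -0.022 and the middle to 5′ change to 0.49. Cyclic loess brought them to 0.14 and 0.54. The middle probe set kept the largest change of the 3 under both, exceeding the 3′ one by 0.51 and 0.40.

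**Figure D2:**
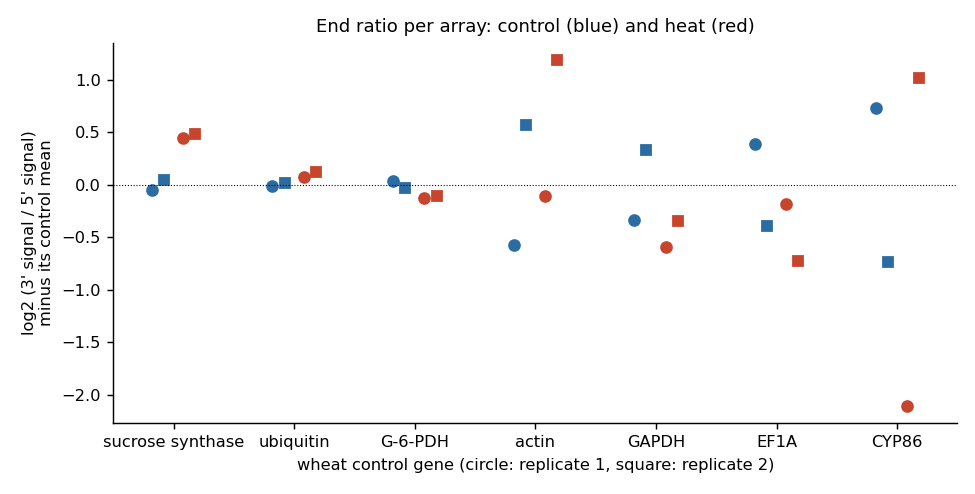
Log2 ratio of 3′ to 5′ signal for 7 wheat control genes, shown per array after subtracting the mean of the control arrays; blue is control, red is heat, circles are replicate 1 and squares replicate 2. The sucrose synthase ratio is 0.46 higher in heat with replicates close together, those of ubiquitin and G-6-PDH differ by 0.10 and -0.11, and the dimmer actin, GAPDH, EF1A and CYP86 scatter widely between replicates.

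Such end ratios are also read as a sign of RNA quality, so the other wheat control genes are given beside them. Their levels differ, with a mean log2 3′ to 5′ ratio in control of 5.58 for sucrose synthase, 2.58 for G-6-PDH and -0.41 for ubiquitin. For actin, GAPDH, EF1A and CYP86 it lay between -2.76 and 0.88. The 3′ to 5′ ratio was higher in heat for 2 of the 6 control genes other than sucrose synthase. Ubiquitin, a bright and abundant transcript, changed by 0.10, and glucose-6-phosphate dehydrogenase (G-6-PDH) by -0.11, both with replicates closer than that difference. Actin changed by 0.54 with an SD of 0.81 in control and 0.92 in heat (n = 2), GAPDH by -0.47, EF1A by -0.45 and CYP86 by -0.54. EF1A and CYP86 had an end probe set below the brightness limit. On the deposited scale, the middle to 5′ ratio was 0.70 higher in heat for sucrose synthase, 2.38 higher for actin and 1.38 higher for CYP86. In each case the groups did not overlap. The same ratio changed by -0.023 for ubiquitin, -0.032 for G-6-PDH, -0.57 for EF1A and -1.91 for GAPDH, where EF1A and GAPDH had a probe set below the limit. The part of RNA quality in the sucrose synthase values was not tested. Of the 22 wheat control probe sets other than sucrose synthase, 16 were bright enough to test, 5 were higher and 2 were lower. The 5 were 18S rRNA (log2 0.42), the 3′, 5′ and middle probe sets of ubiquitin (0.38, 0.28 and 0.25) and the middle one of CYP86 (1.49). The 2 were the 3′ and 5′ probe sets of actin (-1.41 and -1.95). The bright 18S rRNA and ubiquitin thus rose by amounts like those of 1-FEH (0.39) and AGP-S (0.33).

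1-FEH hydrolyses inulin-type linkages of fructan. It was among the brightest transcripts, brighter than 98.4% of wheat probe sets in mean log2 signal. Its probe set read 8737 and 9170 in control and 12454 and 11037 in heat. All heat values exceeded all control values, by 1.20 times at the nearest. The group means were 8953 ± 306 and 11745 ± 1002 (SD, n = 2 each), and the log2 fold change was 0.39 ± 0.07 SE (0.23 to 0.55, adjusted p = 0.00364, limma). The heat replicates lay 0.17 apart in log2 signal and the control replicates 0.07, so the change exceeded both gaps. The gene table lists 2 further wheat genes with a 1-FEH synonym. The array annotation gives neither a probe set, and near-identical copies of this gene may contribute to the same signal. The call also rests on the intensity trend in limma, since without it the adjusted p was 0.0870. Under quantile normalization the change was smaller, at log2 0.18, with an adjusted p of 0.04997 in limma.

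6-FEH hydrolyses levan-type linkages, which are common in the fructans of wheat. None of its 3 probe sets was bright. The one whose identifier ends in S1_at was the only one above the brightness limit, and it read 58.6 and 74.2 in control and 124 and 73.9 in heat. Its mean log2 signal was 6.04 in control, under the limit of 6.11, and 6.58 in heat, so it was tested only through its heat values. The second heat array lay between the control arrays, so the groups overlapped and only the first heat array stood out. The log2 fold change was 0.54 ± 0.45 SE (-0.50 to 1.58, adjusted p = 0.389, limma), and without heat replicate 1 it was 0.16.

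The other probe sets of 6-FEH had the opposite sign. The one ending in A1_x_at read 51.5 and 83.2 in control and 20.2 and 47.3 in heat, so both heat values lay below both control values. The one ending in A1_a_at read 54.0 and 41.9 in control and 11.0 and 47.1 in heat, where the groups overlapped. Both were too dim for the test, and both have names that mark probe sets able to match several transcripts. In the limma fit with no brightness filter they stood at log2 -1.08 ± 0.74 SE and -1.07 ± 0.95 SE, with adjusted p = 0.431 and 0.557. Neither passed at an unadjusted p below 0.05. No direction for 6-FEH was detectable at these signals, and the interval of the tested probe set allows anything from 0.71-fold to 2.98-fold.

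AGP-S encodes the subunit that, with a large subunit, forms the enzyme of the first committed step of starch synthesis, and leaves use it for the starch they lay down by day. Its probe set read 4469 and 4745 in control and 5640 and 5940 in heat. The groups were apart by 1.19 times at the nearest. The means were 4607 ± 195 and 5790 ± 212 (SD, n = 2 each), with a log2 fold change of 0.33 ± 0.06 SE (0.19 to 0.47, adjusted p = 0.00457, limma). The replicates of each group differed by 0.09 and 0.07 in log2 signal, so the change was several times the gap between replicates. Without the intensity trend in limma the adjusted p was 0.0914, and the call was lost, as that of 1-FEH was. With unmoderated t statistics neither gene passed (adjusted p = 0.114 for AGP-S and 0.157 for 1-FEH).

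**Figure D3:**
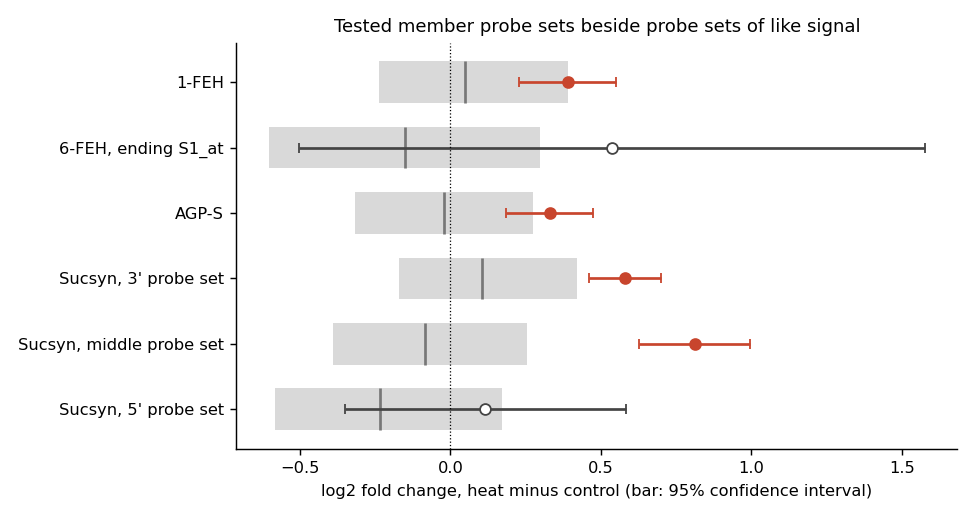
Log2 fold change, heat minus control, of the 6 tested probe sets with 95% confidence intervals; filled red points passed the threshold and open points did not. Grey boxes give the span from the lower to the upper quartile of the changes among the 1001 tested probe sets nearest in mean signal and the grey line their median. The 3′ and middle probe sets of sucrose synthase lie with their whole intervals above the box, whereas the intervals of 1-FEH and AGP-S reach into it.

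Among bright probe sets, rises of this size were common. The change of 1-FEH was larger than that of 74.9% of the 1001 tested probe sets nearest to it in mean signal, whose median log2 fold change was 0.048 and of which 38.1% were called higher. For AGP-S the figure was 78.7%, with a median of -0.022 and 29.9% called higher. The 3′ probe set of sucrose synthase exceeded 80.1% of its neighbours (median 0.10, 43.3% called higher) and the middle one 88.1% (median -0.085, 26.3% called higher). Measured from the median of like signal, the changes were 0.34 for 1-FEH, 0.35 for AGP-S, 0.47 for the 3′ and 0.90 for the middle probe set of sucrose synthase. The 5′ probe set, at 0.12, stood 0.35 above the median of its own dimmer neighbours (-0.23), the same distance as AGP-S. These comparisons describe where the members lie and carry no test.

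**Figure D4:**
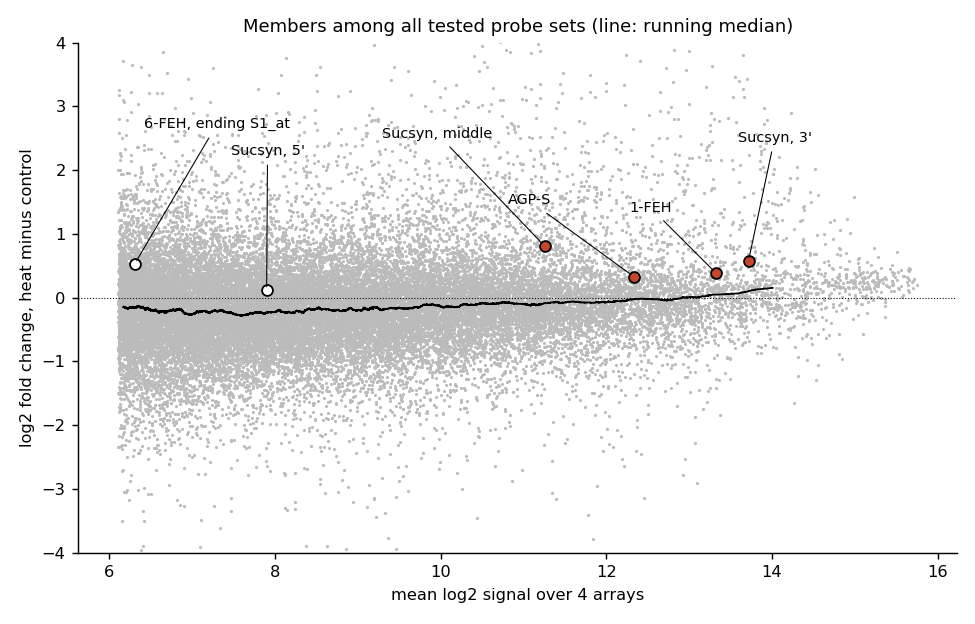
Log2 fold change against mean log2 signal for the 30602 tested probe sets (grey), with the running median over 1001 probe sets in black and the 6 tested members as circles, filled where called higher. The running median climbs from below 0 among dim probe sets to above 0 among the brightest, where 1-FEH and the 3′ probe set of sucrose synthase sit; 129 probe sets beyond ±4 are not drawn.

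How much of each change remained under other scalings of the arrays differed between the members. The middle probe set of sucrose synthase ranged from 0.79 to 0.93 in log2 over the 4 other scalings. AGP-S ranged from 0.24 to 0.45, 1-FEH from 0.18 to 0.51 and the 3′ probe set of sucrose synthase from 0.29 to 0.70, each with its lowest value under quantile normalization and its highest with median centring. All 4 stayed higher at an adjusted p below 0.05 (limma) in those scalings, 1-FEH only just. Their order was not stable, because 1-FEH exceeded AGP-S on the deposited scale and lay below it under quantile normalization and cyclic loess. The difference between those genes was not tested, and their confidence intervals overlap.

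**Figure D5:**
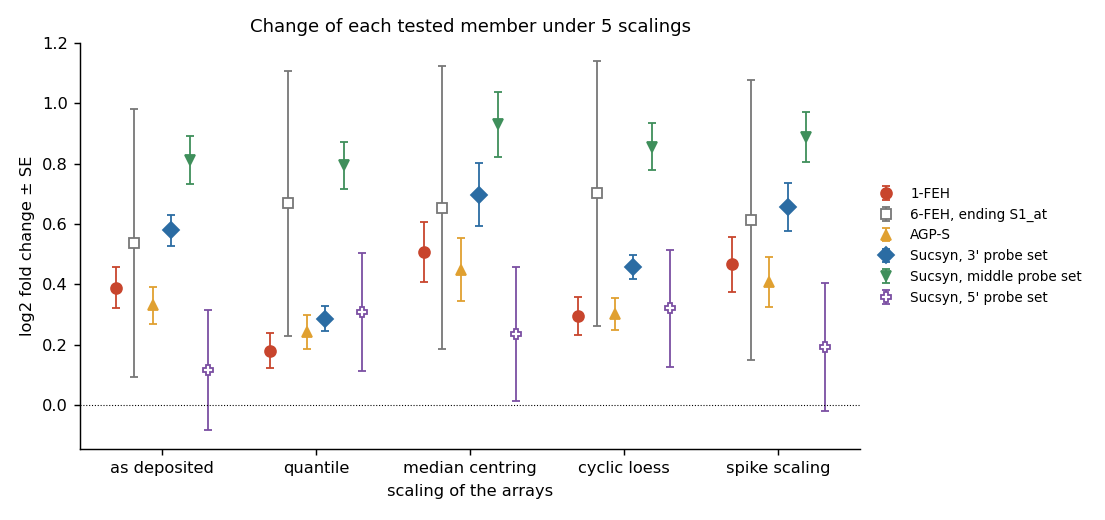
Log2 fold change ± SE of the 6 tested probe sets on the deposited scale and under 4 other scalings; filled symbols have an adjusted p below 0.05 in limma. The middle probe set of sucrose synthase stays between 0.79 and 0.93, while 1-FEH, AGP-S and the 3′ probe set of sucrose synthase are lowest under quantile normalization.

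Few other genes of carbohydrate metabolism could be matched by name on this array. The list of sucrose, fructan and starch genes was matched on symbols and synonyms only, so genes with only a locus number would be missed. It held 2 genes besides the members, with 3 probe sets, of which 1 was bright enough to test and was lower. That probe set belongs to FBP, a fructose-1,6-bisphosphatase of the route from photosynthesis to sugars. Its signals were 11776 and 10718 in control and 9010 and 8105 in heat, with every heat value below every control value. The log2 fold change was -0.39 ± 0.07 SE (adjusted p = 0.00424, limma), opposite in sign to those of 1-FEH, AGP-S and sucrose synthase and, unlike them, largest under quantile normalization (-0.59).

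The other gene of the list was the granule-bound starch synthase GBSS, the waxy gene that makes amylose in grain. Its probe set was below the brightness limit, with 45.6 and 10.6 in control and 14.0 and 9.30 in heat. The 4 values overlap between groups, and no level or change could be read from them. The second probe set of FBP was also below the limit. A gene with the synonyms amy1 and BMY1 and a gene with the synonym IVR1 fell outside the list's patterns and are given because these names were seen in the table. The amy1 probe set read 62.0 and 72.0 in control and 98.5 and 18.6 in heat, and the IVR1 probe set, whose gene also carries the synonym atpA, read below 10 on every array.

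For the brightest probe set of each member, the named genes with the nearest pattern over the 4 arrays were found by the Euclidean distance between log2 signals centred on their own mean, among 68 named genes with a tested probe set. With only 4 arrays in 2 groups, this measure mostly compares the size of the change. The nearest to AGP-S were LTP3, a lipid transfer protein, at a distance of 0.051, and OEE1 (PsbO), a protein of the oxygen-evolving complex, at 0.056. The same pair was nearest to 1-FEH, at 0.14 each. The 3′ probe set of sucrose synthase lay nearest to TaTPC1, a cation channel, at 0.085, and next to DMAS1, a phytosiderophore synthesis gene, at 0.15. TaTPC1 read 1443 and 1495 in control and 2141 and 2092 in heat, and its log2 fold change was 0.53 against 0.58 for sucrose synthase. 6-FEH had no close neighbour, with rbcL at 0.53 and TaTPC1 at 0.54. The dim 6-FEH probe set had heat replicates 0.74 apart in log2 signal. Its log2 fold change of 0.54 was close to that of TaTPC1, so the distance between them does not mark a different size of change. LTP3, OEE1, DMAS1 and rbcL were read on probe sets whose names mark them as able to match several transcripts. The probe set of TaTPC1 has no such mark.

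On the deposited scale the group means of the leaf markers were higher in heat, as were those of the members that rose. The summed signal of the markers was 149575 to 166004 in control and 203672 to 209613 in heat. Of the 4 markers, 3 were called higher, against 14.2% of all tested probe sets. Rises were commoner among bright probe sets, with 43.3% called higher of the 1001 nearest in signal to the 3′ probe set of sucrose synthase. The markers were brighter still, and the share at their own signal was not computed. PRK was not called (log2 0.15, adjusted p = 0.132, limma). Under quantile normalization OEE1 fell to log2 0.095 and lost its call, while rbcL kept its call at 0.44. The part of the leaf markers in the changes of 1-FEH, AGP-S and sucrose synthase was not tested. The summed signal of the genes listed as grain genes, nearly all of it from ALP, overlapped between the groups.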

How the data were processed

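Signal intensities of 61290 probe sets on 4 single-colour arrays were analysed as deposited. The authors used Affymetrix Expression Console 1.1 and MAS5, per the submitters' processing notes; their settings are unknown here. The deposited intensities have a trimmed mean (2% off each end) of 500.1 on each array. Log2 intensities were tested without further scaling in limma 3.58.1 (R 4.3.3, eBayes with an intensity trend, 2 residual and 5.45 prior degrees of freedom), two-sided with Benjamini-Hochberg adjustment over all 30602 probe sets tested, at 0.05. These had a mean log2 signal of at least 6.11 (signal 69.1), the median of 61204 wheat probe sets, namely 61179 without the AFFX prefix and 25 controls for wheat genes. AFFX-Tae controls carry bacterial spikes and were left out. The fit was tested on simulated data. The number of arrays limits the precision, and detection calls were not used.

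Gene names came from the supplied platform annotation (1 symbol for 1273 probe sets, 771 genes) and a RefSeq gene table (770 IDs matched); no genome build is tied to the values, so no coordinates are given. All members are named in the text, with every listed carbohydrate gene that had a tested probe set and the 2 nearest named genes of each member. Probe sequences were not used here. Members, lists and alternatives (scaling, filter, offset, variance prior, probe sets, replicates) were chosen with earlier results of these data known.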

Additional observations from a re-analysis of the deposited data

How the results depend on the processing

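Same-numbered replicates did not deviate together (r = 0.012 across probe sets), and with the replicate block 11619 probe sets and the same number of members, 4, were called. The fit called 11343 probe sets, 4346 higher and 6997 lower. Unmoderated t statistics gave 2594 (1277 and 1317), and leaving out shared probe sets, which also tests fewer, gave 7006 (2667 and 4339). Leaving out 1 array at a time gave 7643 to 10686 calls, 3454 to 3897 higher and 4174 to 6789 lower, the last at its lowest without control replicate 1 (4174) and control replicate 2 (4189). The 4 members called higher stayed 4 whichever array was left out. They became 2 without the intensity trend (1-FEH and AGP-S lost at unchanged log2 0.39 and 0.33, adjusted p = 0.0870 and 0.0914) and 1 with unmoderated t statistics, where 1-FEH (0.39), AGP-S (0.33) and the middle probe set of sucrose synthase (0.81) were lost at adjusted p = 0.157, 0.114 and 0.0757. Without AFFX probe sets, 2 were called (1-FEH and AGP-S) because sucrose synthase was then not tested, and 1 (AGP-S) when quantile normalization was added, where 1-FEH (log2 0.18) missed the threshold. Leaving out 1 array at a time gave log2 0.30 to 0.48 for 1-FEH, 0.29 to 0.37 for AGP-S, 0.55 to 0.61 and 0.73 to 0.89 for the 3′ and middle probe sets of sucrose synthase, 0.079 to 0.15 for its 5′ probe set and 0.16 to 0.91 for 6-FEH. The change in the 3′ to 5′ ratio of sucrose synthase was 0.41 to 0.51 without 1 array, and 0.14 under cyclic loess and -0.022 under quantile normalization; these scalings of the ratio, and quantile normalization without AFFX probe sets, were added with the data in view. FBP kept its direction under all 17 alternatives and lost its call in 2, without the intensity trend and with unmoderated t statistics. Among the nearest genes, TaTPC1 kept its call throughout, LTP3 lost it in 4 of 16, OEE1 and DMAS1 in 3 of 16 and rbcL in 1 of 16.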
